A study of Mus musculus with 12 samples.

Results

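The proteasome is the chamber in which cells break down proteins that carry ubiquitin chains, and its subunits are encoded by genes of the Psma, Psmb, Psmc and Psmd series. All genes with one of these stems followed by digits were taken if they were listed at each of 3 ages, and pseudogenes were left out. This gave 39 genes of the 25834 that the tables of all 3 ages share. The RNA came from cortical nuclei of male mouse pups at P0, P14 and P28 (the days after birth), with 4 libraries per age, each labelled a biological replicate. The mice of every age were heterozygous for CAG-Sun1/sfGFP, a green nuclear envelope tag, and for NEX-Cre, which is expressed from the Neurod6 locus in excitatory neurons of the forebrain and their late precursors. Tagged nuclei were pulled down with an antibody (INTACT), so the polyadenylated RNA is that of nuclei and not of whole cells. The labels add WT at P0 and P14, and not at P28, without naming a locus. No control group without the tag or the driver is part of the comparison.

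The core particle is a barrel of stacked rings: alpha subunits (Psma) form the outer rings and the gate, and beta subunits (Psmb) form the inner rings, where a few of them carry the cutting sites. The regulatory particle caps the barrel, with a base of ATPases (Psmc) that unfold the substrate and feed it in, further base subunits that bind ubiquitin or its carriers, and a lid (other Psmd) that removes the ubiquitin chain. In neurons the proteasome is known for the turnover of synaptic proteins, and immune cells use a variant of it with exchanged catalytic subunits and another cap.

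Levels are given as scaled CPM: reads were divided by the library total over the shared genes (CPM) and then scaled so that the median gene is level between libraries. Each age had its own separately normalised table, so every level set across ages rests on this rescaling, and age cannot be told apart from anything else that differed between the preparations. Libraries held 13195973 to 16599217 recovered reads at P0, and the P14 libraries 25486861 to 33611769 and the P28 libraries 21569262 to 31215435; 3 reads corresponded to 0.0858 to 0.236 scaled CPM. P14 replicate 2 stood apart, with a mean correlation with the other P14 libraries of 0.951, where every other library had 0.976 or more with those of its age. The sum of 11 markers of excitatory neurons ranged over 1856–2104 scaled CPM at P0, over 1583–2484 at P14 and over 2693–2811 at P28, and none of these markers was at 0 in any library. Of the 39 genes, 35 reached 1 scaled CPM in at least 4 libraries and were tested with limma across the 15734 genes that did. Psma8, Psmb8, Psmb9 and Psmb11 did not. The lowest gene tested was Psmd10, at 145 to 182 reads in the P0 libraries, and the highest one left out was Psmb8, at a mean of 0.794 scaled CPM at P14.

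Between P0 and P14 the largest falls were those of Psmd1 and Psmd2, the scaffold subunits of the base, of Psma6 in the alpha ring, of Psmd11 in the lid and of Psmb6, which carries the caspase-like site. The inducible catalytic gene Psmb10 rose, as the only member that did so in this fit. At P14 against P0, 16 of the 35 genes tested passed the threshold, against 68.9% of all genes: 15 fell (42.9%), against 34.5% of all genes, and 1 rose (2.86%), against 34.4% of all genes, so that the share falling was near that of all genes and the share rising was lower. The median log2 fold change was −0.19, against 0.01 for all genes, but the sign depends on the scaling: on the deposited values without rescaling, where the median of all genes moved to 0.47, the core median was 0.29 and the regulatory median 0.33, and 22 genes rose and 2, Psma6 and Psmd1, fell. Relative to the median of all genes, the core median was −0.21 on scaled CPM and −0.19 on the deposited values. Other scalings also raised the number of rising genes: library totals gave 4 rising and 10 falling, TMM 4 and 11, and quantile normalisation 3 and 12. A further gene rose with 1 library left out: Psmc5 without P0 replicate 4 or P28 replicate 1, and Psma3 without P14 replicate 1. All 4 P14 libraries lay below all 4 P0 libraries for 13 genes (37.1%), against 30.2% of all genes, and above them for 4 (11.4%), against 29.2%. In nuclei of mixed origin, fewer cells of a type and less RNA per cell cannot be told apart. Marker lists of other cells changed at the same step: 9 of 10 vascular markers and 7 of 8 progenitor markers fell, with sums of 213 to 354 at P14 against 1242 to 2229.6 at P0 for the vascular list and of 44.3 to 106 against 388 to 554 for the progenitor list. All 9 oligodendrocyte markers rose, with a sum of 1001 to 2469 at P14 against 102 to 110.4 at P0, where Opalin was at 0 in all 4 libraries and Mobp in 1. Of 8 astrocyte markers, 4 rose and 1 fell, with a sum of 1436 to 2702 at P14 against 548 to 738 at P0. Of 11 excitatory neuron markers 1 rose and 6 fell, of 10 inhibitory neuron markers 2 rose and 4 fell, and of 6 oligodendrocyte precursor markers 2 rose and 2 fell. The part of these cells in the proteasome results was not tested.

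**Figure D1:**
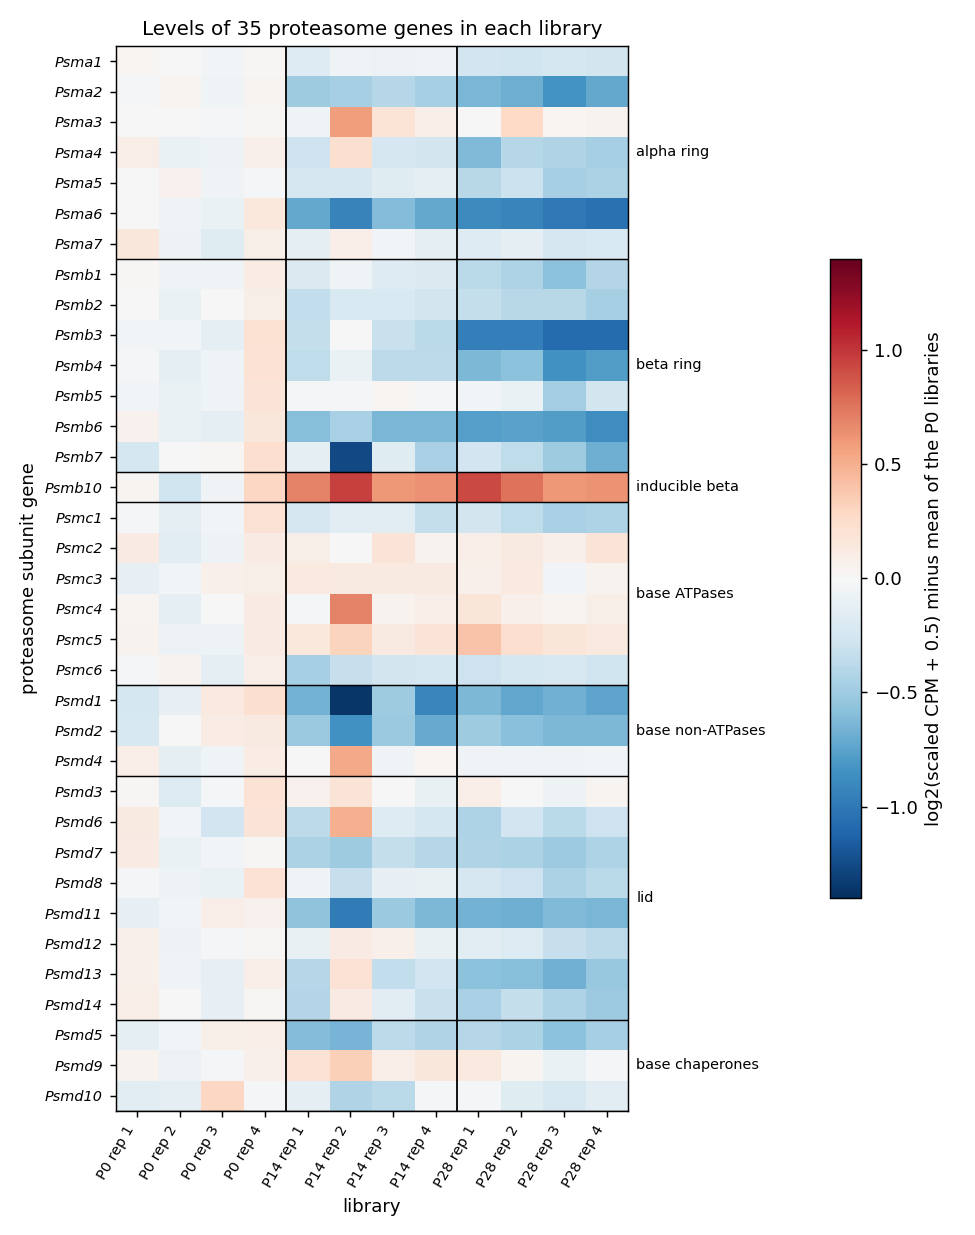
Level of each of the 35 tested proteasome genes (rows, by role) in each of the 12 libraries (columns, P0 to P28), as log2(scaled CPM + 0.5) minus the mean of the P0 libraries; red is above that mean and blue below it. Most rows turn blue after P0 on this scale (a direction that flips for most genes at P14 on the deposited values without rescaling), Psmb10 is red in all P14 and P28 libraries, and P14 replicate 2 differs from its neighbours in many rows.

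From P14 to P28 the beta ring genes Psmb3, Psmb4 and Psmb1, the alpha ring gene Psma2 and the lid gene Psmd13 fell. At P28 against P14, 5 of 35 passed the threshold, against 18.3% of all genes: all 5 fell (14.3%, against 9.09% of all genes) and 0 rose (against 9.22%). No rise was found by limma at an unadjusted p under 0.05 either, nor by edgeR or DESeq2 on the recovered reads, while 12 genes fell at an unadjusted p under 0.05. The P28 libraries lay below all P14 libraries for 11 genes (31.4%), against 13.2% of all genes, and above them for 0, against 14.2%. The median log2 fold change was −0.15, against −0.01 for all genes. Without P14 replicate 2 the count of falling genes was 8, without P14 replicate 4, P28 replicate 2 or P28 replicate 4 it was 3, and without P28 replicate 3 it was 2. Psmb3 alone kept its call in every alternative run for this comparison. At the same step 5 of 10 vascular and 2 of 8 progenitor markers and 2 of 8 astrocyte markers fell and 3 of 9 oligodendrocyte markers rose, and their part was not tested.

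Over the whole interval Psmb3, Psma6, Psmb6, Psma2 and Psmb4 had the largest falls, and Psmb10 and Psmc5 rose. At P28 against P0, 23 of 35 genes passed the threshold, against 71.2% of all genes: 21 fell (60%), against 35.6% of all genes, and 2 rose (5.71%), against 35.7%. The median log2 fold change was −0.37, against 0.00 for all genes, and on the deposited values without rescaling, where the median of all genes was 0.28, 9 genes fell and 8 rose. All P28 libraries lay below all P0 libraries for 22 genes (62.9%), against 35.7% of all genes, and above them for 2 (5.71%), against 35.6%. Of the 23 calls, 21 were kept in every alternative other than the deposited values; Psmc5 was lost without P0 replicate 2, P0 replicate 3 or P28 replicate 1 (adjusted p up to 0.0808), and Psmd12 without P28 replicate 3 or 4 (up to 0.0542). The 3 comparisons share libraries. Psma2, Psmb3 and Psmb4 fell at both steps, 12 genes fell at P14 against P0 and did not pass at P28 against P14, 2 did the opposite, and 17 passed at neither step; whether the steps differ for a gene was not tested. Between P28 and P0 all 10 vascular and all 8 progenitor markers fell, and all 9 oligodendrocyte and all 10 microglia markers rose. The vascular sum was 149 to 192 at P28 against 1242 to 2229.6 at P0 and the oligodendrocyte sum 1935 to 3141 against 102 to 110.4, and their part was not tested.

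**Figure D2:**
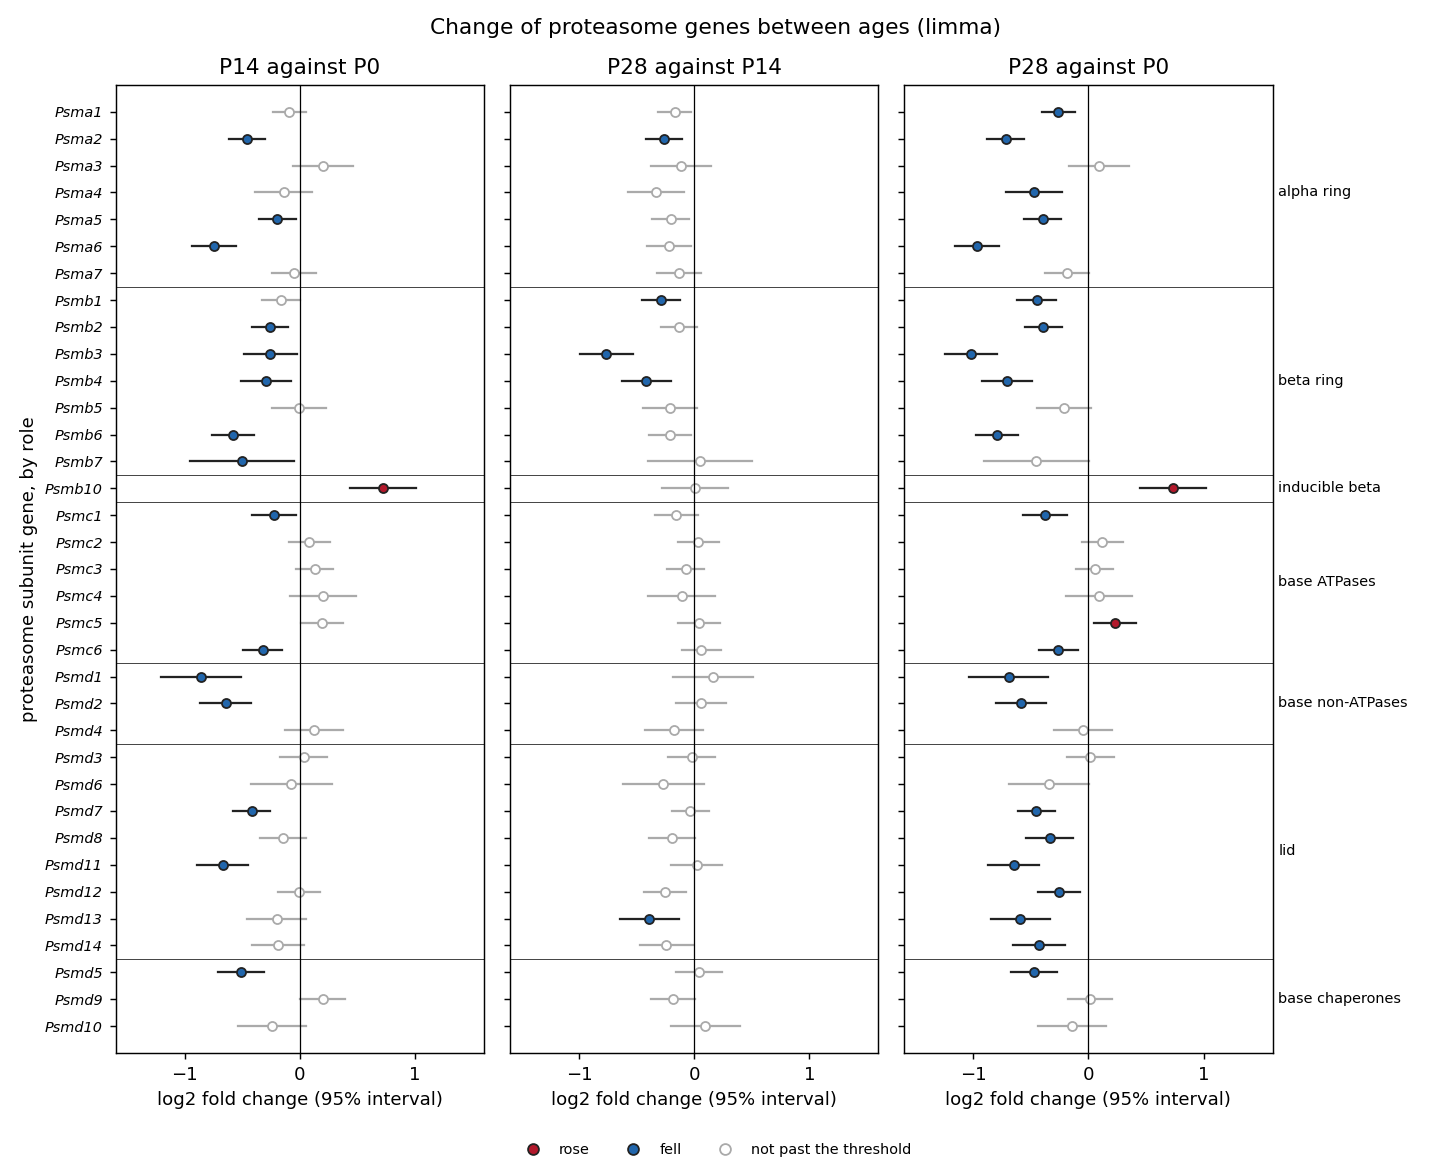
Log2 fold change of each tested proteasome gene (rows, by role) with its 95% interval, for P14 against P0, P28 against P14 and P28 against P0, from limma; red points rose, blue points fell and open points did not pass an adjusted p of 0.05. On this scale 15, 5 and 21 genes fell and 1, 0 and 2 rose, whereas the deposited values without rescaling gave 2, 22 and 9 falling and 22, 0 and 8 rising.

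Among the 7 tested alpha ring genes, 3 fell at P14 against P0, 1 at P28 against P14 and 5 at P28 against P0, with none rising, on scaled CPM. Of all genes, 34.5%, 9.09% and 35.6% fell in these comparisons and 34.4%, 9.22% and 35.7% rose. On the deposited values Psma2 and Psma5 had positive values at P14. Psma6 measured 140.1, 135, 131 and 155 scaled CPM in the P0 libraries, 85.3, 72.7, 91.6 and 84.7 in the P14 libraries and 75.3, 73.5, 69.7 and 67.5 in the P28 libraries. The P0 libraries were all above every later one, and the ranges of P14 and P28 overlapped. Its log2 fold change was −0.75 ± 0.09 (SE) at P14 against P0 (limma, Benjamini-Hochberg adjusted p = 6.43e-06) and −0.97 ± 0.09 at P28 against P0 (adjusted p = 4.11e-07). Psma2 measured 103, 108, 101 and 108 at P0, 74.1, 75.9, 79.4 and 76.1 at P14 and 67.3, 65.5, 58.6 and 63.7 at P28. The 3 ages did not overlap: its log2 fold change was −0.46 ± 0.07 at P14 against P0 (adjusted p = 8.32e-05) and −0.26 ± 0.07 at P28 against P14 (adjusted p = 0.0268). Psma3 had the value most opposed to the rest of the ring at P14, without passing the test. It had 105, 105, 103 and 105 scaled CPM at P0, 100.1, 157, 119 and 111 at P14 and 104, 127, 106 and 108 at P28, so that P14 replicate 2 was the highest of all and the ages overlapped (log2 fold change 0.20 ± 0.12 at P14 against P0, adjusted p = 0.152). The later fall of Psma2 was lost without P14 replicate 3 or 4 or P28 replicate 2, 3 or 4 (adjusted p up to 0.092), and that of Psma5 at P14 without P0 replicate 1 or 2 or P14 replicate 1 or 3 (up to 0.0781).

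Of the 7 constitutive beta ring genes, 5 fell at P14 against P0, 3 at P28 against P14 and 5 at P28 against P0, on scaled CPM. The shares of all genes that fell were 34.5%, 9.09% and 35.6%. On the deposited values Psmb2, Psmb3 and Psmb4 had positive values at P14. Psmb3, a subunit without a cutting site, had the largest fall of any member at P28 against P14. It measured 64.9, 64.9, 60.6 and 77.7 scaled CPM at P0, 52.8, 66.8, 53.6 and 51.2 at P14, and 34.0, 34.2, 31.3 and 31.4 at P28. All 4 P28 libraries were far below the others, while P14 replicate 2 reached into the P0 range. The log2 fold change was −0.76 ± 0.11 at P28 against P14 (limma, adjusted p = 0.000571) and −1.02 ± 0.11 at P28 against P0 (adjusted p = 1.27e-06). Psmb4, another subunit without a cutting site, measured 147, 136, 143 and 170.3 at P0, 115, 139, 115 and 115 at P14, and 96.1, 99.4, 82.2 and 85.7 at P28; its P28 libraries were below all earlier ones, and its log2 fold change at P28 against P14 was −0.41 ± 0.10 (adjusted p = 0.0133). Psmb1, also without a cutting site, measured 131, 125, 124 and 139 at P0, 113, 125, 114 and 113 at P14, and 99.5, 96.3, 86.9 and 97.7 at P28. P0 and P14 overlapped and P28 was below both (−0.29 ± 0.08 at P28 against P14, adjusted p = 0.0214). Psmb1 lost that call without P28 replicate 3 (adjusted p = 0.0762), Psmb4 its call at P14 without P0 replicate 4 (0.0501), and Psmb3 its call at P14 against P0 (−0.26 ± 0.11, adjusted p = 0.0445) without any of 10 libraries (up to 0.121).

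The genes of the 3 constitutive cutting subunits gave different calls on scaled CPM. Psmb6, the caspase-like subunit, measured 143, 128, 125 and 152 at P0, 90.0, 99.04, 87.6 and 87.4 at P14, and 79.8, 81.1, 79.0 and 74.4 at P28. The ages did not overlap, with a log2 fold change of −0.58 ± 0.08 at P14 against P0 (limma, adjusted p = 3.64e-05) and −0.79 ± 0.08 at P28 against P0 (adjusted p = 1.66e-06); on the deposited values the fall at P14 was −0.10 and not called. Psmb5, the chymotrypsin-like subunit, measured 33.1, 31.7, 32.5 and 38.5 at P0, 33.6, 33.4, 34.6 and 33.2 at P14, and 33.1, 31.7, 24.1 and 28.3 at P28. P0 and P14 overlapped, and the test was not passed at P14 against P0 (−0.01, 95% interval −0.24 to 0.23, adjusted p = 0.961) or at P28 against P0 (−0.22, −0.45 to 0.02, adjusted p = 0.0908). Psmb7, the trypsin-like subunit, measured 51.6, 60.7, 62.0 and 71.8 at P0, 56.0, 25.1, 54.2 and 44.6 at P14, and 50.6, 47.6, 43.2 and 37.7 at P28. P14 replicate 2 was less than any other library, and the P14 range reached into that of P0. Its fall at P14 (−0.50 ± 0.21, adjusted p = 0.0472) was lost without any of 9 libraries, P14 replicate 2 among them (adjusted p up to 0.117); without P14 replicate 2 the value was −0.25. The differences between these genes were not tested.

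Psmb10 encodes the inducible subunit that replaces the Psmb7 product in the immunoproteasome, the variant known from immune cells and interferon. It measured 16.4, 13.1, 15.4 and 19.7 scaled CPM at P0, 26.1, 31.6, 24.6 and 25.1 at P14, and 30.8, 27.5, 24.7 and 25.1 at P28, on 180 to 272, 649 to 1103 and 584 to 788 reads. Every P14 and P28 library was above every P0 library, and P14 and P28 overlapped. The level was 1.65-fold higher at P14 than at P0 (log2 fold change 0.72 ± 0.13, limma adjusted p = 0.000291) and 1.66-fold higher at P28 than at P0 (adjusted p = 0.000239), with 0.01 at P28 against P14 (95% interval −0.28 to 0.30). The direction and the call at P14 against P0 and at P28 against P0 held in all 27 alternatives. Per length of transcript, Psmb10 made up 22.5, 16.5, 18.5 and 20.0% of the sum of Psmb10 and Psmb7 at P0, 29.9, 53.4, 29.3 and 34.0% at P14, and 35.7, 34.5, 34.3 and 37.8% at P28. The later libraries were all above the P0 ones, and the highest, P14 replicate 2, is the library with the low Psmb7. The other inducible genes were near the detection floor and were not tested. Psmb8, the counterpart of Psmb5, had 6–13 reads per library at P0, 18–29 at P14 and 4–14 at P28, or 0.934, 1.24 and 0.596% of the sum of both genes per length. Psmb9, the counterpart of Psmb6, had 2 to 5, 8 to 15 and 8 to 13 reads, or 0.112, 0.262 and 0.317%. Of 10 microglia markers, 9 rose at P14 against P0 and all 10 at P28 against P0, where 34.4% and 35.7% of all genes rose. Their sum ranged over 39.1–60.9 scaled CPM at P0, over 68.1–127 at P14 and over 100.5–117 at P28. The lowest P14 sum, 68.1, was in replicate 2, which also had the lowest P14 sums of astrocyte (1436) and oligodendrocyte (1001) markers. The part of microglia in the Psmb10 result was not tested.

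**Figure D3:**
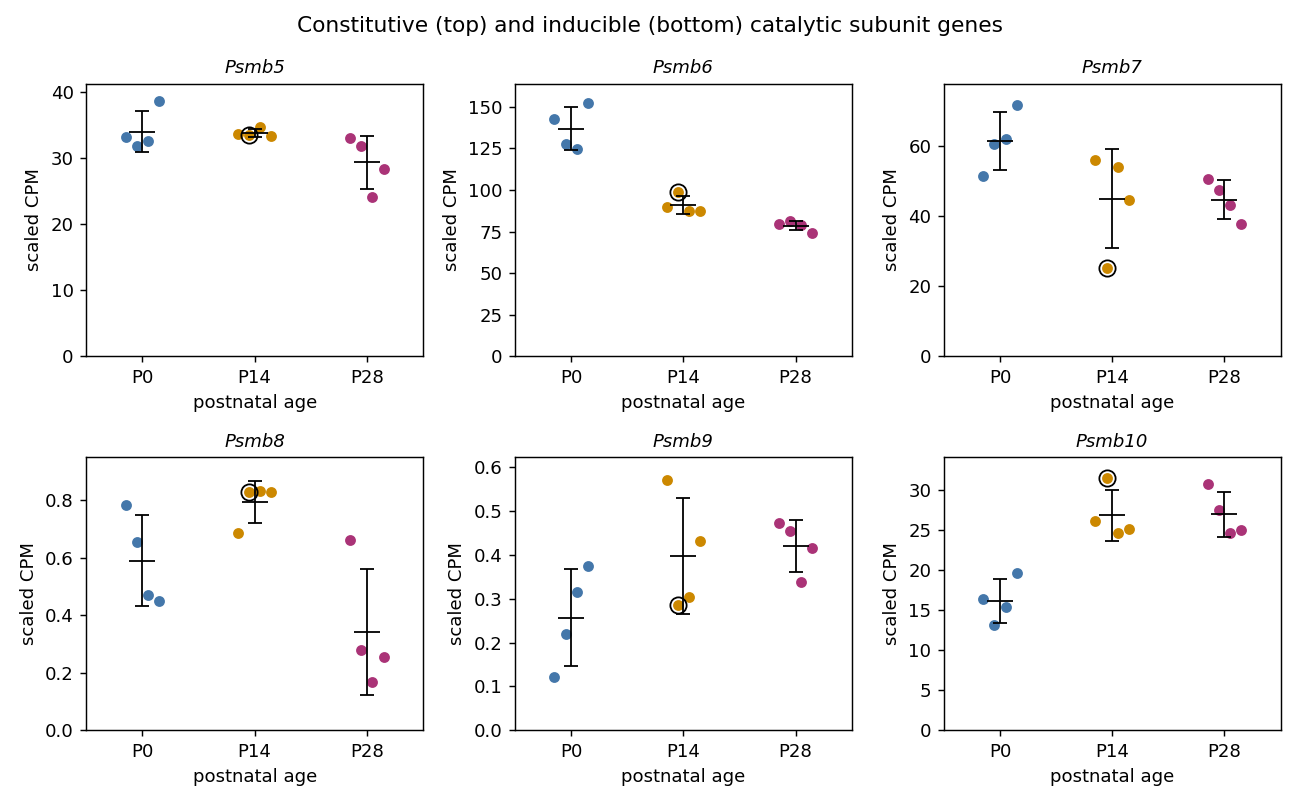
Scaled CPM of the constitutive catalytic genes (top) and of the inducible ones (bottom) in each library at P0, P14 and P28; points are libraries, bars are means and the ringed point is P14 replicate 2. The Psmb10 libraries of P14 and P28 (24.6 to 31.6) lie above those of P0 (13.1 to 19.7), Psmb6 lies lower at each later age on this scale (on the deposited values the difference at P14 was −0.10 and not called), and Psmb8 and Psmb9 stay below 1 scaled CPM.

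The 2 tissue-restricted genes were at the floor. Psma8, an alpha subunit of the testis, had 0.422, 0.729, 0.472 and 0.523 scaled CPM at P0, 0.266, 0.0286, 0.265 and 0.144 at P14, and 0.0474, 0.105, 0.0845 and 0.223 at P28. The P0 libraries were above all later ones, on few reads. Psmb11, a beta subunit of the thymus, had 0 reads in the 4 P0 libraries, where 3 reads would be 0.181 to 0.236 scaled CPM, and at most 0.227 in a later library.

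Of the 6 ATPases of the base, 2 fell and 0 rose at P14 against P0 (1 rose at an unadjusted limma p under 0.05), 0 passed at P28 against P14 (also 0 unadjusted), and 2 fell and 1 rose at P28 against P0. Among all genes, 34.5% fell and 34.4% rose at P14 against P0, and 18.3% passed at P28 against P14. At P28 against P0, 35.6% of all genes fell and 35.7% rose. Their median log2 fold changes were 0.11, −0.02 and 0.07 on scaled CPM and are relative to the scaling used. Psmc6 measured 125, 131, 115 and 134 at P0, 91.1, 101, 105 and 106 at P14, and 103, 106, 107 and 104 at P28. All later libraries were below the P0 ones, with −0.32 ± 0.08 at P14 against P0 (limma, adjusted p = 0.00252); on the deposited values the sign was reversed. Psmc1 measured 132, 122, 129.8 and 154 at P0, 113, 119.9, 119.8 and 106 at P14, and 112, 104, 97.7 and 99.2 at P28. Its P14 libraries were below all P0 libraries, by −0.22 ± 0.09 (adjusted p = 0.0387), a call lost without any of 7 libraries (adjusted p up to 0.111) and of the opposite sign on the deposited values. Psmc5 measured 107, 97.6, 98.6 and 112 at P0, 115, 129, 113 and 118 at P14, and 137, 122, 117 and 114 at P28. Both later ages were above all P0 libraries, with 0.19 ± 0.09 at P14 against P0 (adjusted p = 0.0589) and 0.23 ± 0.09 at P28 against P0 (adjusted p = 0.025). Psmc2, Psmc3 and Psmc4 passed in no comparison, with log2 fold changes of 0.08, 0.13 and 0.20 at P14 against P0; that of Psmc4 was 0.04 without P14 replicate 2.

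Of the 3 base subunits that are no ATPases, Psmd1 and Psmd2 fell at P14 against P0, with positive values in no alternative (on the deposited values Psmd2 was not called), and Psmd4 did not pass. In that comparison 34.5% of all genes fell. Psmd1 measured 127, 139, 165 and 176 scaled CPM at P0, 95.2, 58.0, 106 and 79.6 at P14, and 96.9, 90.5, 94.2 and 89.8 at P28. The P0 libraries were all higher, P14 replicate 2 was the lowest of all, and P14 and P28 overlapped (−0.86 ± 0.16 at P14 against P0, limma adjusted p = 0.000327). Of the genomic span of Psmd1, 25% is shared with Htr2b, and reads of overlapping genes cannot be assigned here because the strand setting is not given. Psmd2 measured 268, 312, 336 and 343 at P0, 218, 174, 219 and 192 at P14, and 221, 208, 203 and 202 at P28. P0 did not overlap the later ages (−0.65 ± 0.10 at P14 against P0, adjusted p = 7.49e-05). Psmd4, a receptor for ubiquitin chains, measured 127, 108, 114 and 128 at P0, 118, 171, 115 and 122 at P14, and 115, 114, 115 and 116 at P28; the ages overlapped and only P14 replicate 2 was high (0.12 at P14 against P0, adjusted p = 0.359).

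Of the 8 lid genes, 2 fell at P14 against P0, 1 at P28 against P14 and 6 at P28 against P0, on scaled CPM. The shares of all genes that fell were 34.5%, 9.09% and 35.6%. On the deposited values Psmd7 had a positive value at P14 against P0 and Psmd11 was not called. Psmd11 measured 86.8, 91.4, 101 and 97.9 at P0, 63.4, 47.5, 65.6 and 60.7 at P14, and 59.2, 58.3, 61.2 and 60.1 at P28. The later libraries were all below those of P0 (−0.67 ± 0.10 at P14 against P0, limma adjusted p = 5.14e-05). Psmd13 measured 145, 134, 128 and 148 at P0, 105, 159, 109 and 115 at P14, and 92.9, 91.6, 86.9 and 95.8 at P28. P28 was below both other ages (−0.39 ± 0.12 at P28 against P14, adjusted p = 0.0366), and P14 replicate 2 was above every library; the call was lost without P14 replicate 4 or any P28 library (adjusted p up to 0.0965), and without P14 replicate 2 the value was −0.26. Psmd14, the enzyme that cuts the ubiquitin chain off, fell at P28 against P0 (−0.43, adjusted p = 0.00226), and Psmd7, its partner, fell at P14 against P0 (−0.42 ± 0.08, adjusted p = 0.000233). Psmd3, another lid subunit, measured 189.8, 164, 183 and 215 at P0, 195, 212, 188 and 174 at P14, and 199, 188, 178 and 192 at P28; the ages overlapped, and no comparison passed.

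Psmd5, Psmd9 and Psmd10 have Psmd names but encode chaperones that build the base and leave it. Psmd5 fell at P14 against P0 (48.3 ± 4.64 at P14 and 69.0 ± 5.004 at P0, SD, n = 4 each; −0.51 ± 0.09, limma adjusted p = 0.000234), a call not made on the deposited values. Psmd9 measured 35.5, 32.4, 33.6 and 36.0 at P0, 39.4, 43.5, 36.6 and 38.5 at P14, and 37.8, 35.4, 32.1 and 33.6 at P28. Its P14 libraries were above those of P0 without passing the test (0.20 ± 0.09, adjusted p = 0.0647). Psmd10 averaged 11.7 at P0, 9.79 at P14 and 10.5 at P28 and passed in no comparison; 34.6% of its span is shared with Atg4a.

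Compared per length of transcript, the most abundant members at P0 were Psmb6 (171 ± 16.2 scaled CPM per kb, SD, n = 4), Psma7 (147 ± 15.02), Psmd14 (142 ± 8.16) and Psma6 (135 ± 10.3). At P28 they were Psma7 (128 ± 4.28), Psmd14 (105 ± 5.27), Psmb6 (98.5 ± 3.64) and Psmc5 (92.9 ± 7.76), with Psma6 at 68.6 ± 3.39. At both ages neighbours in this order differed by less than the sum of their SDs, except that Psma7 lay above Psmd14 at P28. The lowest tested members per kb were Psmd10, Psmb10 and Psmd9, at 8.16, 12.7 and 13.2 at P0. The order depends on the transcript length used for each gene, which was 933 bases for Psmd14 and 2846 for Psma3. A shorter length gives a higher level per kb, and other lengths were not tried.

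Core and regulatory particles were compared next. At P14 against P0, 8 of 15 tested core genes fell and 1 rose, against 6 and 0 of 17 regulatory genes. At P28 against P14, 4 core genes and 1 regulatory gene fell (9 and 3 at an unadjusted limma p under 0.05). At P28 against P0, 10 fell and 1 rose in each particle. Of all genes, 34.5%, 9.09% and 35.6% fell in the 3 comparisons and 34.4%, 9.22% and 35.7% rose. The median log2 fold changes in the 3 comparisons were −0.19, −0.21 and −0.45 for the core and −0.15, −0.07 and −0.34 for the regulatory particle, of which those at P14 against P0 turn positive on the deposited values without rescaling. With 1 library left out, the regulatory median at P14 against P0 was between −0.24 (without P14 replicate 2) and −0.09 (without P0 replicate 4), and at P28 against P14 between −0.10 (without P28 replicate 2) and −0.04 (without P28 replicate 3). The difference of the medians, core minus regulatory, was −0.05, −0.14 and −0.11 and a scaling common to all genes moves both medians alike. For P14 against P0 it was −0.00469 without P0 replicate 2, −0.03 without P0 replicate 3, −0.00712 without P14 replicate 2, −0.10 without P0 replicate 4 and −0.13 with quantile normalisation; for P28 against P0 it was −0.06 without P28 replicate 4. These genes were chosen with results known, so no test of the lists was made.

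Summed levels give the same comparison weighted by abundance. The 19 core genes summed to 1458, 1391, 1372 and 1555 scaled CPM at P0, 1174, 1322, 1229.6 and 1190.2 at P14, and 1068, 1095, 1004 and 1015 at P28, so that the ages did not overlap. The 17 regulatory genes summed to 2276, 2188, 2265 and 2509 at P0, 1968, 2198, 2049.7 and 1947 at P14, and 1976, 1938, 1855 and 1896 at P28, with overlap between neighbouring ages. The 6 ATPases summed to 727, 685, 706 and 788 at P0, 699, 794, 731 and 716 at P14, and 741, 724, 689 and 704 at P28, and overlapped throughout.

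Ratios of such sums within a library do not depend on the scaling of that library. The ratio of core to regulatory sums ranged over 0.606–0.640 at P0, 0.597–0.611 at P14 and 0.535–0.565 at P28, with means of 0.625 ± 0.0159, 0.602 ± 0.00633 and 0.545 ± 0.0132 (SD, n = 4 each). P28 lay below both other ages, and P0 and P14 overlapped. Against the ATPases alone, the core ratio ranged over 1.94–2.03 at P0, 1.66–1.68 at P14 and 1.44–1.51 at P28, with no overlap between ages. P14 replicate 2 did not stand apart in it. The ratio of lid to ATPases was 1.34 to 1.42, 1.17 to 1.26 and 1.08 to 1.11, again without overlap. The regulatory sum held Psmd1 and Psmd2, which both fell at P14; without Psmd1, Psmd2 and Psmb10 the core to regulatory ratio changed by a factor of 0.886 at P14 against P0, where it was 0.963 with them. Within the core, the ratio of alpha to beta sums ranged over 1.08–1.21 at P0, 1.18–1.304 at P14 and 1.26–1.39 at P28; P28 lay above P0, and P14 overlapped both.

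**Figure D4:**
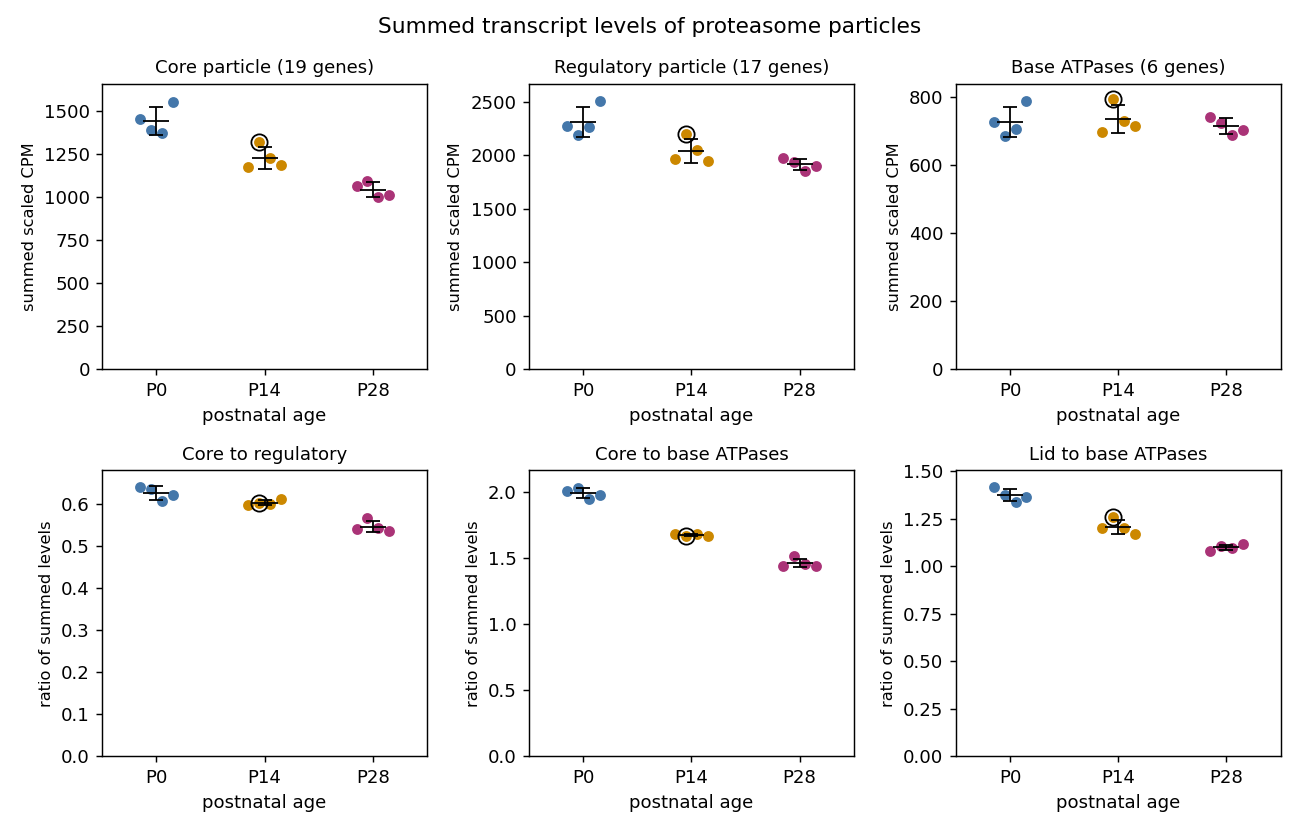
Summed scaled CPM of the core (19 genes), the regulatory particle (17) and its ATPases (6), and ratios of core to regulatory, core to ATPases and lid to ATPases, in each library at P0, P14 and P28; points are libraries, bars are means and the ringed point is P14 replicate 2. The core to ATPase ratio separates the ages (1.94 to 2.03, 1.66 to 1.68 and 1.44 to 1.51), while the ATPase sums overlap.

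Many genes of the proteasome are targets of Nfe2l1, a transcription factor that binds the antioxidant response element, and of its relative Nfe2l2. The core letters of that element, TGANNNNGC on either strand, were looked for in RefSeq windows (GRCm38.p6) from 250 bases before to 50 after each gene start. They were found in 19 of the 32 members with a window (59.4%), against 45.0% of all 27025 genes. The stricter TGACNNNGC, which overlaps it, was in 5 (15.6%), against 14%, and CCAAT, the letters bound by NF-Y, in 13 (40.6%), against 41.1%. Shown are the 250 bases before the start of the 3 members with a match there and the largest changes at P14 against P0, all of which fell; capitals mark TGANNNNGC on either strand. Psmd1 lies at chr1:86064369-86064618 on the plus strand, with the match 224 bases before the start. Psma6 has a start after chr12:55383972-55384221 (plus strand, match 170 bases before it) and a start inside the gene after chr12:55398575-55398824 (match 92 bases before it). Psmb6 lies at chr11:70525107-70525356 on the plus strand, with the match 9 bases before the start of this window's transcript, where it also has the letters of TGACNNNGC. The annotated Psmb6 gene begins at 70525324, so this start and the match lie inside the gene. A match describes letters and not a bound site.
Psmd1: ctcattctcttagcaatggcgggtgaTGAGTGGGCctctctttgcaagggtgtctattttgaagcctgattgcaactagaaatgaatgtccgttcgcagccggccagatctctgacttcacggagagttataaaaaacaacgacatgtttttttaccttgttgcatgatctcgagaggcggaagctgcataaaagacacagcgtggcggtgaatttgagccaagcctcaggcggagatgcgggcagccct
Psma6, start at the gene's beginning: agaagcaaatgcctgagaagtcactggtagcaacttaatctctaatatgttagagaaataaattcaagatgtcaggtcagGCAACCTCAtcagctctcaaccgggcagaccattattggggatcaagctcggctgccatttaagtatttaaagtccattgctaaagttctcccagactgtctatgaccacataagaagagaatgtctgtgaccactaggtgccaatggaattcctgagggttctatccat
Psma6, start inside the gene: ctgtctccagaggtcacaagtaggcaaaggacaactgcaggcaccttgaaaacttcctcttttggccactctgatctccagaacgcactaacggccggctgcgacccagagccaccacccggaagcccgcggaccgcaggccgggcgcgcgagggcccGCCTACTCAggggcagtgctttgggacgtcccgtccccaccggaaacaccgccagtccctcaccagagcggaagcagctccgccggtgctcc
Psmb6: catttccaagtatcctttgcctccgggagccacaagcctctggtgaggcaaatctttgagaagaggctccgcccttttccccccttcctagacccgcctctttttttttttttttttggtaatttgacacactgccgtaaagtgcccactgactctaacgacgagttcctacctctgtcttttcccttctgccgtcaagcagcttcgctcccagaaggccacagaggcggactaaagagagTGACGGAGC

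Of the 14 genes on a list of regulators of proteasome genes, 2 rose and 6 fell at P14 against P0, 3 rose and 2 fell at P28 against P14, and 5 rose and 8 fell at P28 against P0. Of all genes, 34.4% rose and 34.5% fell at P14 against P0, and over the alternatives the list gave 2 to 8 rising and 5 to 7 falling genes there. At P28 against P14, 9.22% of all genes rose and 9.09% fell, and at P28 against P0, 35.7% rose and 35.6% fell. Nfe2l1 measured 176, 191, 205 and 229 scaled CPM at P0, 233, 131, 230.4 and 207 at P14, and 330.3, 312, 291 and 311 at P28. The P28 libraries were above all earlier ones, and P14 replicate 2 was the lowest of all. It rose at P28 against P14 (0.67 ± 0.16, limma adjusted p = 0.0118), a call kept in all 27 alternatives. Ddi2, the protease that activates the Nfe2l1 protein, measured 51.9, 61.4, 66.1 and 53.4 at P0, 64.6, 53.0, 62.8 and 66.3 at P14, and 92.2, 84.5, 86.7 and 85.8 at P28. It was higher in every P28 library than in any earlier one (0.50 ± 0.10 at P28 against P14, adjusted p = 0.00445), also in all 27 alternatives. Nfe2l2 measured 6.26, 12.6, 19.5 and 8.82 at P0, 7.07, 1.89, 4.32 and 4.39 at P14, and 6.54, 3.24, 3.84 and 3.96 at P28. The P0 libraries spread widely and overlapped the later ones, and it fell at P14 against P0 (−1.32 ± 0.37, adjusted p = 0.00581). The largest fall of the list was that of Bach1, a repressor at antioxidant response elements, which averaged 11.2 at P14 against 88.2 at P0 (−2.97 ± 0.21, adjusted p = 4.98e-08). Nfya, a subunit of NF-Y, averaged 42.0 at P14 against 102 at P0 (−1.27 ± 0.13, adjusted p = 1.38e-06), and Vcp, the ATPase that pulls Nfe2l1 from the endoplasmic reticulum, 164 against 254 (−0.62 ± 0.08, adjusted p = 1.33e-05; not called on the deposited values). Ngly1, which removes sugars from Nfe2l1, rose to 34.5 at P14 against 20.3 at P0 (0.75 ± 0.13, adjusted p = 0.000143).

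Of 5 genes for other caps and an inhibitor of the core, 3 fell and 1 rose at P14 against P0, 1 fell at P28 against P14, and 3 fell and 1 rose at P28 against P0. Of all genes, 34.5%, 9.09% and 35.6% fell in these comparisons and 34.4%, 9.22% and 35.7% rose. Over the alternatives the list gave 2 to 3 falling and 1 to 2 rising genes at P14 against P0. Psme1 and Psme2 encode the subunits of the interferon-responsive cap, and both fell. Psme1 measured 67.0, 61.8, 61.3 and 64.5 at P0, 22.3, 26.6, 21.9 and 21.97 at P14, and 17.9, 17.4, 15.6 and 16.98 at P28; no ages overlapped (−1.44 ± 0.09 at P14 against P0, limma adjusted p = 1.71e-08, and −0.43 at P28 against P14, adjusted p = 0.00724). Psme2 measured 42.5, 37.7, 31.8 and 31.7 at P0, 13.7, 20.7, 11.7 and 13.9 at P14, and 15.8, 13.6, 14.3 and 14.01 at P28; P0 lay above the later ages, which overlapped (−1.25 ± 0.16 at P14 against P0, adjusted p = 1.07e-05). Both calls at P14 against P0 held in all 27 alternatives. Psme3, which encodes a nuclear cap, averaged 94.1, 83.3 and 96.3 at P0, P14 and P28 and passed in no comparison. Psme4, another nuclear cap, measured 173, 144, 156 and 127 at P0, 183, 263, 177 and 198 at P14, and 171, 184, 213 and 224 at P28. P14 was above P0 (0.44 ± 0.14, adjusted p = 0.012), and P14 replicate 2 was the highest library. Its rise at P28 against P0 (0.40, adjusted p = 0.0193) was lost without P0 replicate 4, P28 replicate 3 or P28 replicate 4 (adjusted p up to 0.0744). Psmf1, an inhibitor of the core, fell at P14 against P0 (−0.62 ± 0.10, adjusted p = 5.91e-05), a call not made on the deposited values.

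**Figure D5:**
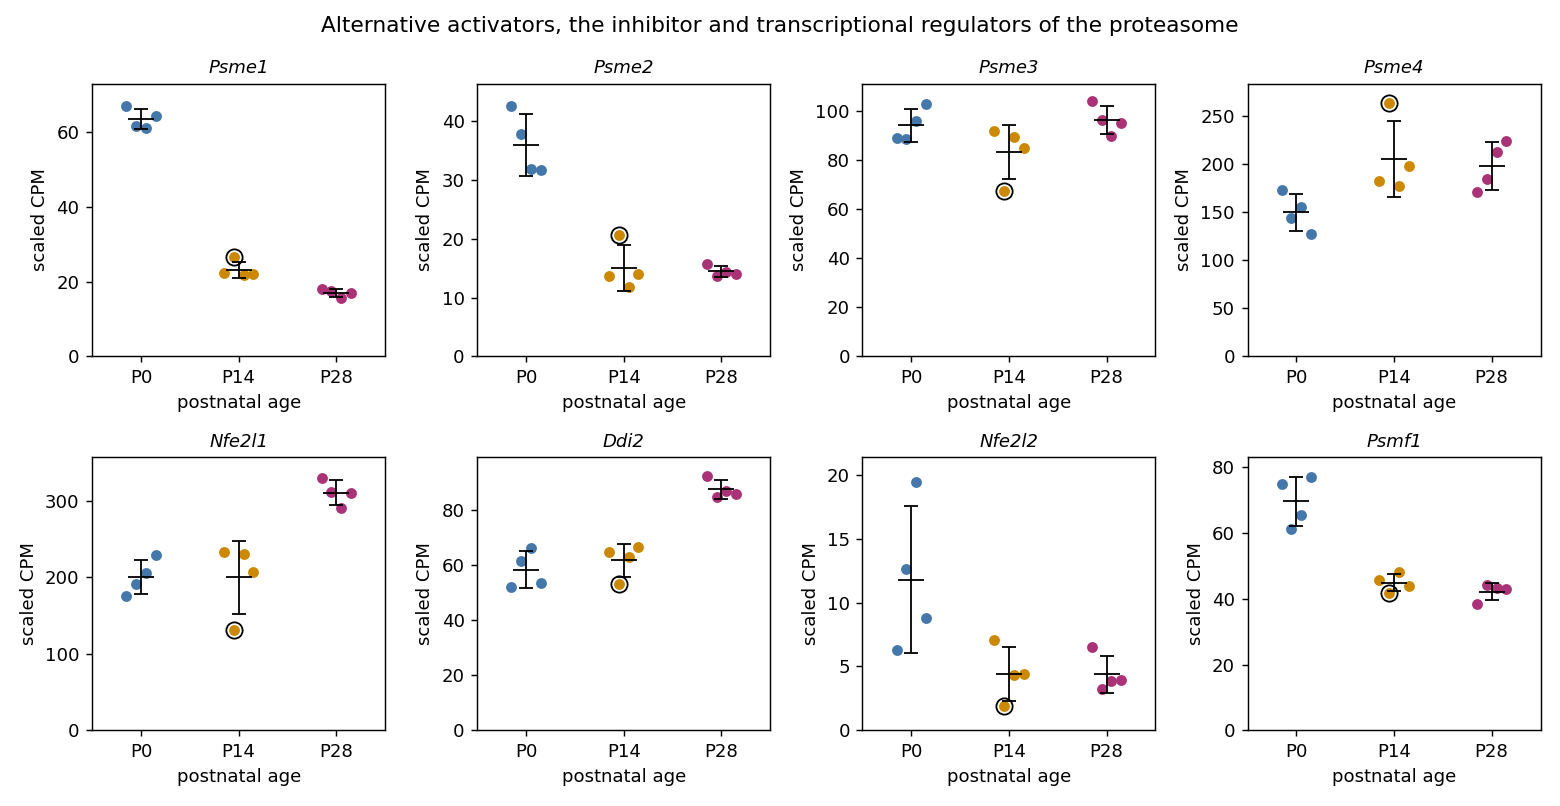
Scaled CPM of the alternative caps Psme1 to Psme4, the regulators Nfe2l1, Ddi2 and Nfe2l2 and the inhibitor Psmf1 in each library at P0, P14 and P28; points are libraries, bars are means and the ringed point is P14 replicate 2. Psme1 and Psme2 lie lower at P14 and P28 than at P0, and Nfe2l1 and Ddi2 are higher at P28 than at both other ages.

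Other parts of the machine were read from 3 short lists. Of 5 chaperones that assemble the core, 2 fell at P14 against P0, 1 at P28 against P14 and all 5 at P28 against P0, where 34.5%, 9.09% and 35.6% of all genes fell. Over the alternatives 0 to 4 fell and 0 to 3 rose at P14 against P0, 0 to 5 fell at P28 against P14, and 3 to 5 fell at P28 against P0. Psmg4 (−0.71 ± 0.19, limma adjusted p = 0.00504) and Psmg1 (−0.49 ± 0.16, adjusted p = 0.0148) were those that fell at P14, and neither was called on the deposited values, nor Psmg1 without both merged libraries. Pomp, which helps the beta rings mature, fell at P28 against P0 (−0.44, adjusted p = 0.00141). Psmg3 fell at P28 against P14 (−0.39, adjusted p = 0.0334), a call lost without any of 5 libraries. Of 5 proteasome-bound factors, Ecpas (0.53 ± 0.10, adjusted p = 0.000333), the deubiquitinase Uchl5 (0.38 ± 0.11, adjusted p = 0.00575) and the deubiquitinase Usp14 (0.36 ± 0.11, adjusted p = 0.00899) rose at P14 against P0 and none fell. The ubiquitin ligase Ube3c had −0.27 ± 0.12 (adjusted p = 0.0582). Of all genes, 34.4% rose there, and over the alternatives 3 to 4 of these factors rose and 0 to 1 fell. At P28 against P14, 0 rose and 1 fell, where 9.22% and 9.09% of all genes did. At P28 against P0, 2 rose and 1 fell, where 35.7% and 35.6% of all genes did. Usp14 was not called at P28 against P0 (0.20, limma adjusted p = 0.119). Of the 2 regulatory subunits without Psm names, Adrm1, a ubiquitin receptor, passed in no comparison (0.24 at P14 against P0, adjusted p = 0.257), and Sem1 fell at P28 against P14 (−0.40 ± 0.13, adjusted p = 0.0453), a call lost without any of 9 libraries (adjusted p up to 0.101). Sem1 also fell at P28 against P0 (−0.49, limma adjusted p = 0.00332). That call was kept with any 1 library left out and was not made on the deposited values.

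P14 replicate 2 differed from the other P14 libraries in opposite directions for different members. Of the 35 tested genes it was above all 3 others for 20, below them for 10 and between them for 5. The genomic spans of these genes had medians of 10.8, 18.7 and 12.4 kb. Across the 35 genes, which share these libraries and are not independent, the deviation of P14 replicate 2 and the log of the span had a Pearson r of −0.38 and a Spearman rho of −0.29, against −0.18 and −0.16 over 14470 genes. Without that library 19 members fell at P14 against P0 and 1 rose, with Psma4, Psmb1, Psmd6, Psmd13 and Psmd14 added and Psmb7 lost.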

How the data were processed

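The deposited files were 3 tables, 1 per age, of normalized read counts (unit: signal); per the values, the authors scaled each library by 1 factor, and each table was normalized on its own. Per the submitters' processing notes, DESeq2 and the mouse build mm10 were used, without versions; per the labels' protocols, RNA was extracted with a Zymo Quick-RNA kit and made into TruSeq stranded mRNA libraries. Not given in the sources used here are the aligner, the counting tool, its strand setting, the handling of reads with several matches and the annotation. P0 replicate 1 and P28 replicate 4 are labelled merged. Columns without a sample numbered 0.

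The tables list 27219, 28826 and 30150 genes at P0, P14 and P28. Each column was divided by its total over the 25834 shared genes, and these CPM were scaled by median-of-ratios factors over the 12 libraries (0.936 to 1.04). Genes that reached 1 scaled CPM in 4 libraries or more were kept, and log2(scaled CPM + 0.5) was tested, two-sided, with limma 3.58.1 (trend and robust, age as factor, all 12 libraries) in R 4.3.3; adjustment was by Benjamini and Hochberg over 15734 genes, threshold 0.05. Fold changes of low genes are understated on this scale. Within 0.05 reads every deposited value was a whole number of reads, which gave recovered reads for edgeR 4.0.16 and DESeq2 1.42.0 as alternatives; others changed the scaling, filter, pseudocount, model and libraries. p-values measure the spread between these libraries. The scripts were tested on simulated data with 50 genes changed at each size. Of these, 26 to 30% were recovered at 1.25-fold and 78 to 86% at 1.5-fold. Far fewer genes changed there than the 68.9% called at P14 against P0, so the simulation does not test the rescaling. Tables were made with Python 3.11.15 and pandas 2.3.3, figures with matplotlib 3.10.9. Levels per kb used the transcript with the longest coding sequence in GENCODE vM1, and the shortest such transcript on ties.

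Members, gene lists and marker lists were chosen with earlier results of these data known. By name, 5 further genes were left out (4 pseudogenes and Psmc3ip); the 2 pseudogenes listed at all 3 ages, Psma5-ps and Psmb6-ps2, reached at most 0.474 scaled CPM. Values in every library are given for the catalytic genes, the 5 largest rises and falls of each comparison and the member of a role that went most against it; of each pathway list, up to 4 genes with the smallest adjusted p at P14 against P0 and a fixed set of regulators and caps are named. Some genes of the pathway lists are not reported here. Protein sequences were not used here.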

Additional observations from a re-analysis of the deposited data

Results flagged for a closer look

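In 7 of 111 sets of 4 libraries, 1 library lay far from the other 3 of its age. A set was a gene, or the sum of the core or regulatory particle, at 1 age. About 5% of such sets are expected to do so by chance if they are independent, whereas these share libraries. In 6 of the 7 the library was P14 replicate 2, each time above the others. Psma4 had 107.4 scaled CPM there, against 75.06 to 78.27 in the other P14 libraries. Psmb1 had 125.0, against 112.5 to 114.2, and Psmb3 had 66.79, against 51.21 to 53.56. Psmb4 had 139.0, against 115.1 to 115.4, and Psmc4 had 184.1, against 111.4 to 121.6. Psmd4 had 171.4, against 114.6 to 121.5. The remaining set was that of Psmc3, with 151.5 in P14 replicate 1 and 150.7 to 150.8 in the others, where the whole range is small. The cause was not tested.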

How the results depend on the processing

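The scaling changed the counts, since the deposited values carry the normalisation of each table; for the other alternatives the cause was not tested. On the deposited values without rescaling, 22 members rose and 2 fell at P14 against P0, 22 fell at P28 against P14, and 8 rose and 9 fell at P28 against P0; core and regulatory medians were 0.286 and 0.334, −0.409 and −0.275, and −0.169 and −0.0567. With library totals 4 rose at P14 against P0 (core median −0.11) and 8 fell at P28 against P14; TMM gave 4, quantile normalisation 3, library weights 3, edgeR 3 and DESeq2 3 rising at P14 against P0. At P28 against P14, falling members numbered 14 with library weights, 9 with DESeq2, 3 with the 8 libraries of the comparison only and 1 without both merged libraries. Leaving out 1 library gave 1 to 2 rising and 11 to 19 falling at P14 against P0, 2 to 8 falling at P28 against P14 (8 without P14 replicate 2, 3 without P14 replicate 4, P28 replicate 2 or P28 replicate 4, and 2 without P28 replicate 3), and 1 to 2 rising and 20 to 24 falling at P28 against P0. The core minus regulatory difference at P14 against P0 was −0.131 with quantile normalisation and −0.103 to −0.00469 with 1 library left out; at P28 against P0 it was −0.0601 without the filter and −0.143 to −0.0567. The core to regulatory ratio changed by 0.915 per kb and 0.886 without Psmb10, Psmd1 and Psmd2 at P14 against P0, and by 0.834 and 0.814 at P28 against P0; core to ATPase per kb by 0.816 and 0.71. The alternatives with library weights, per kb and without those 3 genes were chosen after seeing the data.

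The replicate numbers pair no libraries (correlations of deviations −0.513 to 0.357). With the replicate block, 3 members fell at P28 against P14, and Psma5, Psmb3, Psmb7 and Psmc1 were not called at P14 against P0.

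Log2 fold changes with the opposite sign on the deposited values were, at P14 against P0, Psma1 0.389, Psma2 0.0222, Psma4 0.340, Psma5 0.286, Psma7 0.431, Psmb1 0.321, Psmb2 0.223, Psmb3 0.224, Psmb4 0.188, Psmb5 0.471, Psmc1 0.261, Psmc6 0.160, Psmd6 0.408, Psmd7 0.0634, Psmd8 0.334, Psmd12 0.476, Psmd13 0.281, Psmd14 0.291, Ubqln1 0.0488, Ubqln4 0.204, Psmg3 0.314, Pomp 0.304, Nfe2l1 0.453, Sem1 0.383 and Psme3 0.300; at P28 against P0, Psmd12 0.0242, Psmc6 0.0208 and Psma1 0.0177. Reads limit Psma8, Psmb8, Psmb9 and Psmb11.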

Other observations

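Of the genes that make ubiquitin and load it, 2 are given here, and both fell at P14 against P0. Uba1, the main ubiquitin-activating enzyme, averaged 262 scaled CPM at P14 against 903 at P0 (log2 fold change −1.82 ± 0.18, limma adjusted p = 9.18e-07). Rps27a, which encodes ubiquitin fused to a ribosomal protein, averaged 95.2 against 204 (−1.08 ± 0.13, adjusted p = 6.85e-06).

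Of 5 shuttles that carry ubiquitinated proteins to the proteasome, 4 fell at P14 against P0: Ubqln1 (−0.43 ± 0.10, adjusted p = 0.0016), Rad23b (−0.54 ± 0.13, adjusted p = 0.00196), Ubqln2 (−0.66 ± 0.17, adjusted p = 0.00323) and Ubqln4 (−0.28 ± 0.10, adjusted p = 0.0187), the last not called without P14 replicate 1 or 3, with library total scaling, with quantile normalisation, with the 8 libraries of the comparison only or without both merged libraries. On the deposited values none of the 4 was called, and Ubqln1 and Ubqln4 had the opposite sign; over the alternatives 0 to 4 fell and 0 to 1 rose, and 34.5% of all genes fell. Limma was used for all of these.

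Genes of antigen processing, which act with the inducible subunits, were also read at P14 against P0. The peptide transporter Tap1 (−1.16 ± 0.19, limma adjusted p = 8.96e-05) and its partner Tapbp (−0.75 ± 0.12, adjusted p = 8.15e-05) fell, where Psmb10 rose. The interferon-responsive factor Irf1 rose (0.99 ± 0.17, adjusted p = 0.00018).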
